A study of Mus musculus with 21 samples.

Results

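The genes described here are those whose transcript level differed in the same direction, by at least 2-fold, between mouse embryonic fibroblasts (MEFs) that had received Tet1CD and each of 3 MEF libraries that had not. Of the 11152 genes listed for MEFs, 9928 had a mean value of at least 50 over the 7 MEF libraries and were measured, and 117 of them met the rule: 77 were higher with Tet1CD than in all 3 references and 40 were lower. The 3 references were a control with an empty Flag vector and a luciferase hairpin, a library labelled Dnmt1, and a library with shDnmt1, a hairpin against Dnmt1. Ratios were taken as log2 of (value + 5), a scale on which changes of genes with low values are understated, and the smallest of the 3 log2 ratios is the size given for a gene. The rule itself used the MEF values, so those values are a description and carry no test.

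The fibroblasts were ICR cells from embryos of day 13.5, at passage 2, infected for 48 hours with retroviruses that carried the constructs. The 21 libraries of the study comprise 7 listed for MEFs, 1 of them labelled 5C, and 14 of SKOM cells. SKOM cells are fibroblasts infected with Sox2, Klf4, Oct4 and c-Myc and taken on day 5 of reprogramming. Of their 14 libraries 7 were in medium without vitamin C (Vc-) and 7 with it (Vc+). The other MEF libraries carried shp53, a hairpin against the gene of p53, or shp53 with shDnmt1. The control labelled 5C is not titled as MEF, and its column header reads day 4. In it 97.1% of ranks held another value than the same rank of the MEF control. Counts of 7 MEF libraries include it. In SKOM cells each medium had 3 libraries with Tet1CD, given alone, with Dnmt1 or with shDnmt1, and 4 without it, which were the control, Dnmt1, shDnmt1, and shp53 with shDnmt1. Every combination of constructs had 1 library. The share of infected cells is not given in the sources used here, and separate cultures are nowhere stated, which leaves the SKOM p-values as a measure of the spread between these libraries alone.

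Tet1 is one of the dioxygenases that oxidise 5-methylcytosine in DNA, the first step of active demethylation, and Tet1CD is the usual name of its catalytic domain. Dnmt1 copies methylation onto the new strand after replication, together with Uhrf1. In differentiated cells such as fibroblasts, DNA methylation is known to hold imprinted genes to 1 active allele and to keep germline genes and many repeats silent, and loss of methylation is known in some cells to raise interferon-stimulated genes, the antiviral programme that interferon receptors switch on.

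The deposited values were already normalized, so sequencing depth is unknown. The Tet1CD library stood somewhat apart: 35.8% of its ranks held another value than the same rank of the control, against 2.56% and 2.39% in the libraries labelled Dnmt1 and shDnmt1, while all 4 had a median of 208. All 15 fibroblast markers were measured, with Fn1 and Col1a2 at 38803 in all 4 libraries and Vim at 19841. As 38803 is the highest value of each library, equal values there do not show an equal level. Of the 15 markers 6 were below all 3 references and 1 above, beside 35.7% and 31.3% of all measured genes. Tet1 was not analysed in MEFs, so the construct could not be read from its own transcript there. In SKOM cells Tet1 lay between 2140 and 3129 in the 6 libraries with Tet1CD and between 11 and 88 in the 8 without. Dnmt1 itself was 957 in the MEF control, 975 in the library labelled Dnmt1, 208 with shDnmt1 and 458 with Tet1CD. The library labelled Dnmt1 therefore did not show clearly more Dnmt1 transcript than the control, and this gene does not bear out its label.

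Against single references the Tet1CD library had 155 genes at least 2-fold above the control (1.56% of the measured genes) and 148 below it (1.49%). The counts were 163 (1.64%) and 114 (1.15%) against the library labelled Dnmt1, and 138 (1.39%) and 85 (0.856%) against shDnmt1. The 77 genes above all 3 references are 0.776% of the measured genes and the 40 below them 0.403%. Between the references themselves the same fold was passed by fewer genes: 24 higher (0.242%) and 21 lower (0.212%) in the library labelled Dnmt1 over the control, 39 and 39 (0.393% each) with shDnmt1 over the control, and 26 (0.262%) and 28 (0.282%) with shDnmt1 over the library labelled Dnmt1. The standard deviation of the log2 ratios over all genes was 0.42, 0.41 and 0.39 for Tet1CD over the control, Dnmt1 and shDnmt1, and 0.22, 0.29 and 0.27 among the references. With 1 Tet1CD library there is no replicate check of any of these differences in MEFs, and the 3 ratios share that 1 library.

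Of the 77 higher genes 71 are protein coding and 14 were at least 4-fold above every reference. Their median smallest log2 ratio was 1.34, their median value 258 with Tet1CD, and their references spread over a median of 0.51 on the log2 scale, against 0.21 for all measured genes. For 70 of the 77 the gap between Tet1CD and the nearest reference was wider than the range of the 3 references. Of the 40 lower genes 39 are protein coding and 3 were at least 4-fold below every reference, with a median smallest log2 ratio of -1.31 and a median reference range of 0.26. Here the gap was wider than the reference range for 40 of 40. The rule itself asks for a gap of at least 1 on the log2 scale, above these median ranges. Both counts are therefore largely set by the rule and are no support for it.

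The gene list with the most higher members is the interferon response. Of 33 measured interferon-stimulated genes 16 were at least 2-fold above all 3 references, beside 0.776% of all measured genes. By any amount 32 were above them and 0 below, beside 31.3% and 35.7% of all genes. Their median log2 ratio was 0.95 over the control, 1.74 over the library labelled Dnmt1 and 1.53 over shDnmt1, where the medians of all genes were -0.01, -0.02 and -0.02. The median value of the 33 genes was 73 in the control, 45 in the library labelled Dnmt1, 55 with shDnmt1 and 188 with Tet1CD. The control was the highest of the 3 references for 33 of 33 genes, so it sets the smallest ratio of each. Without the control as a reference 25 of the 33 would pass 2-fold.

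Usp18 (ENSMUSG00000030107, mm10 chromosome 6, 121245906 to 121270916), which removes Isg15 from proteins and dampens the interferon receptor, had a value of 27 in the control, 10 in the library labelled Dnmt1, 7 with shDnmt1 and 183 with Tet1CD, 5.88-fold above the nearest reference. Isg15 (ENSMUSG00000035692, chromosome 4, 156199424 to 156200818), the ubiquitin-like protein that is attached to others during the response, was 37, 6, 11 and 157 in the same order. For both genes Tet1CD lay above every reference, and the control was the highest of the references. Irf7, the transcription factor that amplifies interferon production, was 54, 6, 20 and 157. Its control value was again the highest of the references.

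The effectors of the response followed. Oasl2, of the oligoadenylate synthetase family, was 53 in the control, 17 in the library labelled Dnmt1, 12 with shDnmt1 and 197 with Tet1CD. Rtp4 was 36, 18, 14 and 181, and Xaf1, a partner of the apoptosis inhibitor XIAP, was 54, 23, 17 and 226. All 3 stood at least 3.48-fold above the control, their nearest reference. Ifit1, which binds viral RNA, was 54, 10, 13 and 144, and Bst2, or tetherin, which holds budding viruses at the cell surface, was 59, 19, 37 and 152. Parp9 and Dtx3l, whose proteins form a complex, were 55, 41, 46 and 164, and 63, 41, 27 and 149. These 2 genes overlap on opposite strands of chromosome 16 and Parp14 lies 54967 bp away, so reads in the shared stretch cannot be assigned where strand was not used. Others of the list were Ifi27, Parp14, Samd9l, Ifi35 and Parp12, between 1.03 and 1.43 in smallest log2 ratio. Ifit2 was the 1 measured gene not above all references, with 157 in the control and 143 with Tet1CD.

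Apol9a (ENSMUSG00000057346, chromosome 15, 77403789 to 77411080), of the apolipoprotein L family, is outside the list and was the named gene with the largest ratio. It had 19 in the control, 7 in the library labelled Dnmt1, 11 with shDnmt1 and 142 with Tet1CD, a smallest log2 ratio of 2.61. Irgm2, an immunity-related GTPase, was 49, 21, 27 and 172. Casp1, the caspase that processes interleukin 1 beta, was 22, 25, 27 and 62, and Mlkl, the pore-forming protein of necroptosis, was 159, 113, 180 and 386. The antigen presentation genes were closer to the references, and 0 of 10 passed 2-fold. By any amount 9 of 10 were above all 3, beside 31.3% of all measured genes. Tapbp, which loads peptides onto MHC class I, was nearest to the threshold with 228, 212, 232 and 448.

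The 150 bases directly before the RefSeq start of 4 of these genes are printed below to show what such a promoter looks like. Capitals mark matches to the interferon-response-like word made of GAAA, any 2 bases and GAAA again, on either strand, and overlapping matches run together. The windows are of build GRCm38.p6, read 5′ to 3′ on the gene's strand: Isg15 at chr4:156200819-156200968 on the minus strand with 3 matches, Ifit1 at chr19:34640739-34640888 on the plus strand with 2, Bst2 at chr8:71537473-71537622 on the minus strand with 2 and Apol9a at chr15:77411081-77411230 on the minus strand with 2.
Isg15: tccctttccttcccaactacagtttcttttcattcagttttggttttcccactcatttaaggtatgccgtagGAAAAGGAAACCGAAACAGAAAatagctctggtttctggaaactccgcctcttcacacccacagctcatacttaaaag
Ifit1: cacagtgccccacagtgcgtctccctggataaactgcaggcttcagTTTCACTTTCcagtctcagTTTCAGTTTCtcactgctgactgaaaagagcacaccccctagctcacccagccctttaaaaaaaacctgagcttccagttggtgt
Bst2: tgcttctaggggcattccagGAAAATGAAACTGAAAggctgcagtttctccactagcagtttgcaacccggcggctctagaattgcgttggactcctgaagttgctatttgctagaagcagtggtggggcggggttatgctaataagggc
Apol9a: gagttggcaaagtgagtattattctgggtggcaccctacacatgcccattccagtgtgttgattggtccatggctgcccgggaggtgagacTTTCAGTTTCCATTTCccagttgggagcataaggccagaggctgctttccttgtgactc
These 4 were picked for holding the word after their values were seen. Of the 7858 measured genes with a promoter of 300 bases in the RefSeq table, 2.91% hold it. A match is a description of letters and shows no binding. Promoters were matched for 82 of the 117 genes, under 80%, so a comparison of CpG, GC or motif content over the whole set is void.

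**Figure D1:**
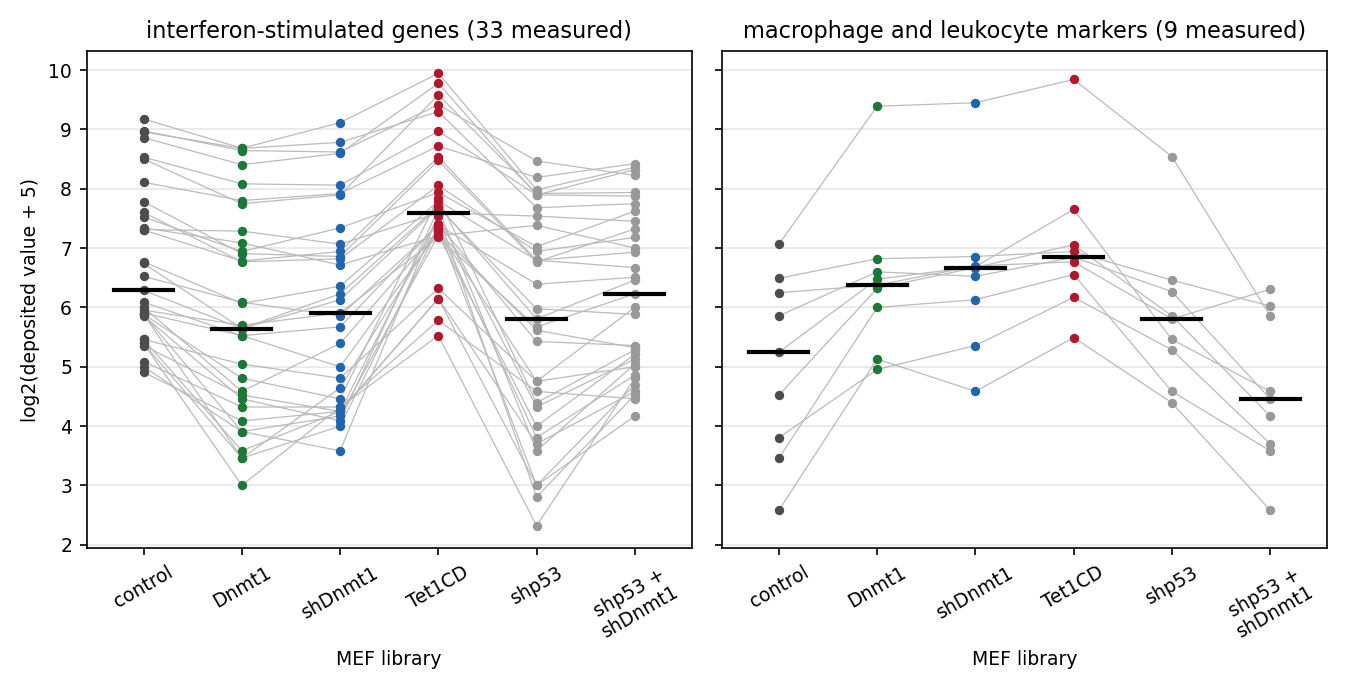
Each line is 1 gene across 6 MEF libraries, with log2(value + 5) on the y axis; black bars are medians over genes. The interferon-stimulated genes are highest with Tet1CD and next highest in the control. The macrophage and leukocyte markers are also above all 3 references with Tet1CD, and are lowest of these references in the control.

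Markers of other cells moved beside these genes. Of 22 macrophage and leukocyte markers 9 were measured. With Tet1CD 9 of 9 were above all 3 references, beside 31.3% of all measured genes, and 0 of them by 2-fold. The summed value of the 11 markers listed for MEFs includes some that the filter left out. It was 423 in the control, 1291 in the library labelled Dnmt1, 1370 with shDnmt1 and 1878 with Tet1CD. With shp53 it was 773, and with shp53 and shDnmt1 262. Lyz2, the lysozyme of macrophages, was 129, 666, 694 and 912 in the first 4, and C1qa 1, 30, 19 and 40, so none of the measured markers was at 0 in these libraries. In bulk RNA a larger share of such cells and more RNA per cell cannot be told apart. The control was lowest of the references for 9 of 9 macrophage markers and highest for 33 of 33 interferon-stimulated genes. With Tet1CD 9 of 9 of these markers and 32 of the 33 genes were above all 3 references. The part of macrophage RNA in the interferon result was not tested.

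The other strongly higher genes have no single role. Xdh (ENSMUSG00000024066, chromosome 17, 73883908 to 73950182), xanthine dehydrogenase of purine breakdown, was 14 in the control, 16 in the library labelled Dnmt1, 38 with shDnmt1 and 227 with Tet1CD. Gdf15 (ENSMUSG00000038508, chromosome 8, 70629393 to 70632095), a secreted stress factor of the TGF-beta family and a p53 target, was 50, 62, 32 and 349. Glipr1 (ENSMUSG00000056888, chromosome 10, 111985455 to 112002621), a secreted protein of the CAP family that is also known as a p53 target, was 550, 502, 740 and 3540. Each of the 3 lay at least 4.76-fold above every reference. Glipr1 overlaps Krr1 on the other strand, which was 357 in the control and 334 with Tet1CD. Of 37 measured p53 targets 2 were 2-fold higher, Gdf15 and the T cell costimulator Cd80 (147, 124, 148 and 334), and 0 were lower. Over all measured genes 0.776% were 2-fold higher and 0.403% lower. Cdkn1a, the CDK inhibitor p21, was 2386, 2327, 2500 and 3531, and Trp53 itself 1008, 1008, 966 and 888.

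Some of the most abundant higher genes share sequence. Rab3gap1 (ENSMUSG00000036104, chromosome 1, 127868773 to 127943868), a subunit of the enzyme that acts on the GTPase Rab3, was 575 in the control, 615 in the library labelled Dnmt1, 736 with shDnmt1 and 3825 with Tet1CD. Slc38a6 (ENSMUSG00000044712, chromosome 12, 73286779 to 73354049), of an amino acid transporter family, was 835, 838, 1192 and 5204. Ccrn4l, or nocturnin, a rhythmic enzyme first described as a deadenylase, was 1379, 1451, 1451 and 6129. The predicted gene Gm29084 was 778, 845, 910 and 5374. The 4 are on different loci and yet have stretches of transcript in common: of all 31-base words in their transcripts, Ccrn4l and Slc38a6 share 2452 (23.3% and 31.3% of each), and Ccrn4l and Gm29084 share 1334 (12.7% and 93.8%). Rab3gap1 shares 763 with Ccrn4l and 707 with Slc38a6. Reads from such stretches could have been split among these genes, so the 4 values are uncertain and are not 4 independent ones. Wdr31, a WD-repeat protein with 122 words in common with Ccrn4l, was 62, 89, 104 and 453. Hyal1, a hyaluronidase, and Nat6 overlap and share 1918 words, and were 91, 111, 83 and 421, and 195, 221, 183 and 451. The predicted genes Gm10715, Gm11168 and Gm21738 also share words, and Gm10715 was listed at 0 in all 3 references and at 32 with Tet1CD. Their direction does not hold over all MEF libraries: Gm10715 was 72 with shp53 and 54 with shp53 and shDnmt1, Gm21738 was 104 and 118 there against 59 with Tet1CD, and Gm11168 was 45 and 66 against 46.

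Cytoskeletal and junction genes were among the higher set. Krt7, a keratin of simple epithelia, was 48 in the control, 32 in the library labelled Dnmt1, 49 with shDnmt1 and 246 with Tet1CD. Dsp, desmoplakin of desmosomes, was 110, 116, 160 and 366. Krt7 and Dsp were the 2 of 8 measured epithelial genes to pass, beside 0.776% of all measured genes. Des, the intermediate filament of muscle, was 258, 247, 287 and 817, and Mylk, the kinase of myosin light chain, 250, 199, 289 and 603. They were 2 of 22 measured smooth muscle contractile genes. Beside 31.3% and 35.7% of all measured genes, 10 of the 22 were above all references and 1 below. That 1 was Acta2, smooth muscle actin, which stood at the shared highest value of 38803 in every reference and at 19827 with Tet1CD.

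Further higher genes included regulators and metabolic enzymes. Zbtb38 (ENSMUSG00000040433, chromosome 9, 96682770 to 96752831), a zinc finger protein that binds methylated CpG, was 262 in the control, 271 in the library labelled Dnmt1, 351 with shDnmt1 and 917 with Tet1CD. It was the 1 of 7 measured methyl-CpG binding proteins to pass, beside 0.776% of all measured genes. Scx, the transcription factor of tendon progenitors, was 120, 122, 102 and 335, and Epas1, a hypoxia-inducible factor, was 66, 61, 75 and 159. Eng, a co-receptor for TGF-beta, was 356, 342, 375 and 848. Slc27a1, which imports fatty acids, was 103, 90, 131 and 387, and Gpx3, the secreted glutathione peroxidase, 481, 444, 558 and 1131. Serpine2, an inhibitor of thrombin and plasminogen activators, was 2500, 2444, 2444 and 5061, with nearly level references. Just inside the threshold were Trpv2 (49, 47, 60 and 125) and Gm12840 (98, 59, 143 and 291), and just outside it Htra1 (838, 730, 901 and 1791) and Gm26809 (1854, 1716, 2081 and 4139).

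**Figure D2:**
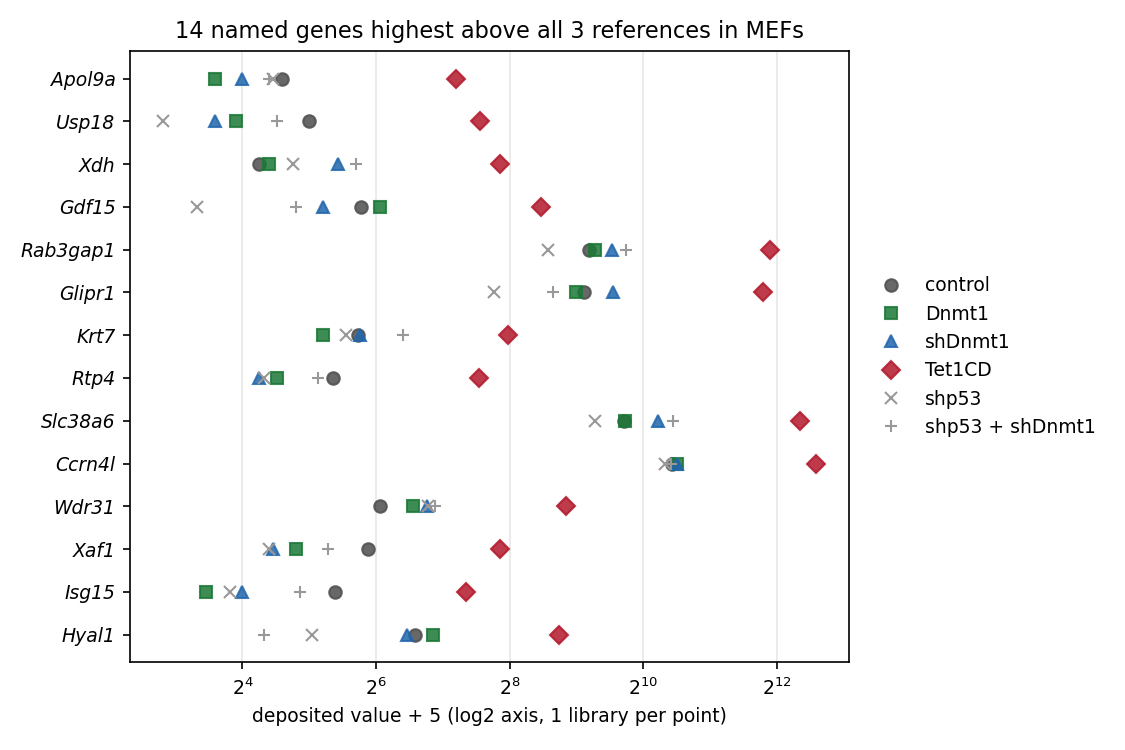
The 14 named genes with the largest smallest ratio among the higher ones, 1 point per MEF library, as deposited value + 5 on a log2 axis. By the rule that chose the genes, the Tet1CD library lies to the right of all 3 references for each. It also lies to the right of the shp53 libraries, a comparison that rests on the same 1 Tet1CD library.

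Among the lower genes H19 had the largest ratio. H19 (ENSMUSG00000000031, chromosome 7, 142575529 to 142578143), the imprinted long noncoding RNA expressed from the maternal allele next to Igf2, was 9045 in the control, 9045 in the library labelled Dnmt1, 7163 with shDnmt1 and 1439 with Tet1CD. Peg3 (ENSMUSG00000002265, chromosome 7, 6703892 to 6730421), a paternally expressed zinc finger gene, was 1788, 1787, 1761 and 673. Grb10 (ENSMUSG00000020176, chromosome 11, 11967532 to 12026324), an adaptor that restrains insulin receptor signalling, was 6713, 6713, 6713 and 2796. The references had nearly the same values for Peg3 and Grb10, while H19 was also lower with shDnmt1 than in the other references. Other genes with high values also held the same number in several libraries. Rplp0 was 6686 in all 3 references, and Calr was 12488 in the control and in the library labelled Dnmt1. Equal values at this height therefore need not show equal levels. The imprinted list had 25 measured entries, of which these 3 were 2-fold lower and 0 higher, beside 0.403% and 0.776% of all genes. By any amount 13 were below all references and 8 above, beside 35.7% and 31.3% of all genes. Igf2 was 9988, 9988, 9988 and 6696, Mest 200, 196, 155 and 85, and Cdkn1c 132, 127, 133 and 206, so imprinted genes lay on both sides.

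Receptors and signalling genes were among the lower set. Pdgfra, the PDGF receptor that marks fibroblasts, was 324 in the control, 275 in the library labelled Dnmt1, 288 with shDnmt1 and 105 with Tet1CD. It was the 1 of 15 measured fibroblast markers to pass, beside 0.403% of all measured genes. Kdr, the VEGF receptor, was 139, 136, 86 and 32. Il1r1, the interleukin 1 receptor, was 202, 207, 236 and 78, and Il1rl1, the receptor for interleukin 33, which lies 112313 bp away on chromosome 1, was 1987, 1962, 969 and 471. Il1rn, the natural antagonist of Il1r1, was 72, 84, 63 and 25, and 17 with shp53, so its Tet1CD value was not the lowest of the MEF libraries. With shDnmt1 the Il1rl1 value was already below the other references, so its smallest ratio was -1.03. Gli2 (ENSMUSG00000048402, chromosome 1, 118834132 to 119053619), a transcription factor of hedgehog signalling, was 170, 145, 170 and 39. Gas1, a hedgehog co-receptor, was 153, 195, 242 and 72, and Kif7, the kinesin that regulates Gli proteins at the tip of the cilium, was 73, 65, 49 and 22, at exactly 2-fold.

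The lower set also held a neuropeptide gene and ion channel genes. Penk (ENSMUSG00000045573, chromosome 4, 4133531 to 4138477), the enkephalin precursor, was 507 in the control, 454 in the library labelled Dnmt1, 343 with shDnmt1 and 66 with Tet1CD, a smallest log2 ratio of -2.29. Nptx1, a neuronal pentraxin, was 323, 324, 605 and 77, and Adcyap1r1, the receptor for the neuropeptide PACAP, was 72, 63, 67 and 14. Elavl2, a neuronal RNA-binding protein, was 107, 114, 116 and 47, and the sodium channel Scn1a 79, 90, 83 and 29. The channel genes Cacna1g (72, 62, 67 and 22) and Piezo2 (110, 108, 117 and 40) were lower too. Genes of these kinds were also in the higher set: the channel genes Kcnj15 (162, 171, 127 and 396) and Trpv2, and the synuclein gene Sncg (194, 226, 264 and 878). The neural and glial marker list holds none of these genes, and 0 of its 6 measured genes were at 2-fold. By any amount 2 were above and 3 below all references, beside 31.3% and 35.7% of all measured genes.

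Several lower genes encode matrix or secreted proteins. Spp1, osteopontin, was 7681 in the control, 7681 in the library labelled Dnmt1, 6727 with shDnmt1 and 2399 with Tet1CD. Fbn2, fibrillin of developing microfibrils, was 504, 447, 351 and 116. It was the 1 of 43 measured core matrix genes to pass, beside 0.403% of all measured genes. Igsf10 was 585, 554, 644 and 212, Adamts9, a secreted metalloprotease, 56, 60, 58 and 14, and Mmp3, stromelysin, 39, 47, 43 and 12. Igfbp3, which carries insulin-like growth factors, was 368, 391, 381 and 175. Its shp53 with shDnmt1 value was 137, below Tet1CD, so the direction does not hold over all MEF libraries. Lrrc17 was 188, 189, 180 and 53, and Angptl7 243, 220, 134 and 43. Just inside the threshold were Arrb1 (66, 57, 82 and 26) and Bambi (57, 58, 60 and 26), and just outside it Hmga2 (19827, 19827, 15100 and 7659) and Crocc (58, 69, 74 and 27).

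**Figure D3:**
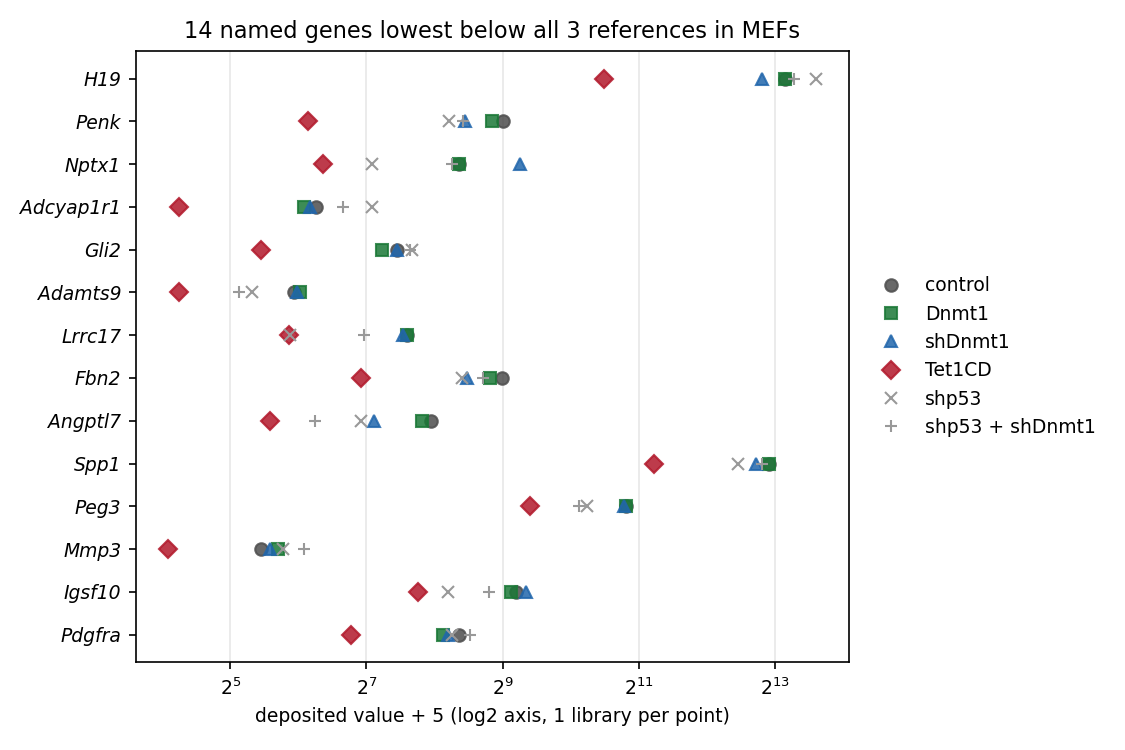
The 14 named genes with the largest ratio among the lower ones, 1 point per MEF library, as deposited value + 5 on a log2 axis. Tet1CD is the leftmost of the 4 compared libraries in each row, from H19 with 1439 against 7163 or more to Pdgfra with 105 against 275 or more.

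Cell cycle genes moved together without passing the fold. Of 40 measured G1/S and replication genes 37 were below all 3 references and 1 above, beside 35.7% and 31.3% of all genes. Of the 40, 0 passed 2-fold. Their median log2 ratio was -0.84 over the control, -0.82 over the library labelled Dnmt1 and -0.47 over shDnmt1. Of 35 G2/M and mitosis genes 29 were below all 3 and 0 above, beside the same shares, with medians of -0.81, -0.75 and -0.31. Pold1, the catalytic subunit of DNA polymerase delta, was nearest with 123, 121, 104 and 52, and Mcm2, of the replicative helicase, was 610, 552, 435 and 235. Top2a, the topoisomerase of dividing cells, was 1550, 1370, 1087 and 704. The shDnmt1 library was itself below the control, with medians of -0.35 and -0.51 for the 2 lists, which brings the smallest ratios down.

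No gene of the DNA methylation list passed 2-fold against all references. For Dnmt1 the rule could not decide, because the hairpin of the shDnmt1 reference is against Dnmt1 itself. With Tet1CD its log2 ratio was -1.06 over the control, -1.08 over the library labelled Dnmt1 and 1.12 over shDnmt1. Dnmt1 was thus more than 2-fold below the control and the library labelled Dnmt1. Uhrf1 was 607 in the control, 578 in the library labelled Dnmt1, 479 with shDnmt1 and 289 with Tet1CD, Dnmt3a, a de novo methyltransferase, 174, 166, 157 and 105, and Tet3, a further dioxygenase, 274, 298, 316 and 183. Tet2 was 115, 133, 129 and 89. Of 10 measured genes of this list 6 were below all references and 1 above, beside 35.7% and 31.3% of all measured genes. Of 20 measured Hox genes 14 were below all references and 2 above, and of 24 mesenchymal transcription factors 18 and 2, beside the same shares. Of the latter, Meox1 (26, 25, 18 and 6) passed 2-fold, beside 0.403% of all measured genes. Of 30 germline genes, which methylation is known to silence, 2 were measured: Tex15 at 122, 111, 110 and 146, and Sycp1 at 83, 75, 70 and 57. Every listed gene reached 32 in 2 or more of the 7 libraries, so a transcript raised by Tet1CD alone would not be among the genes measured.

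**Figure D4:**
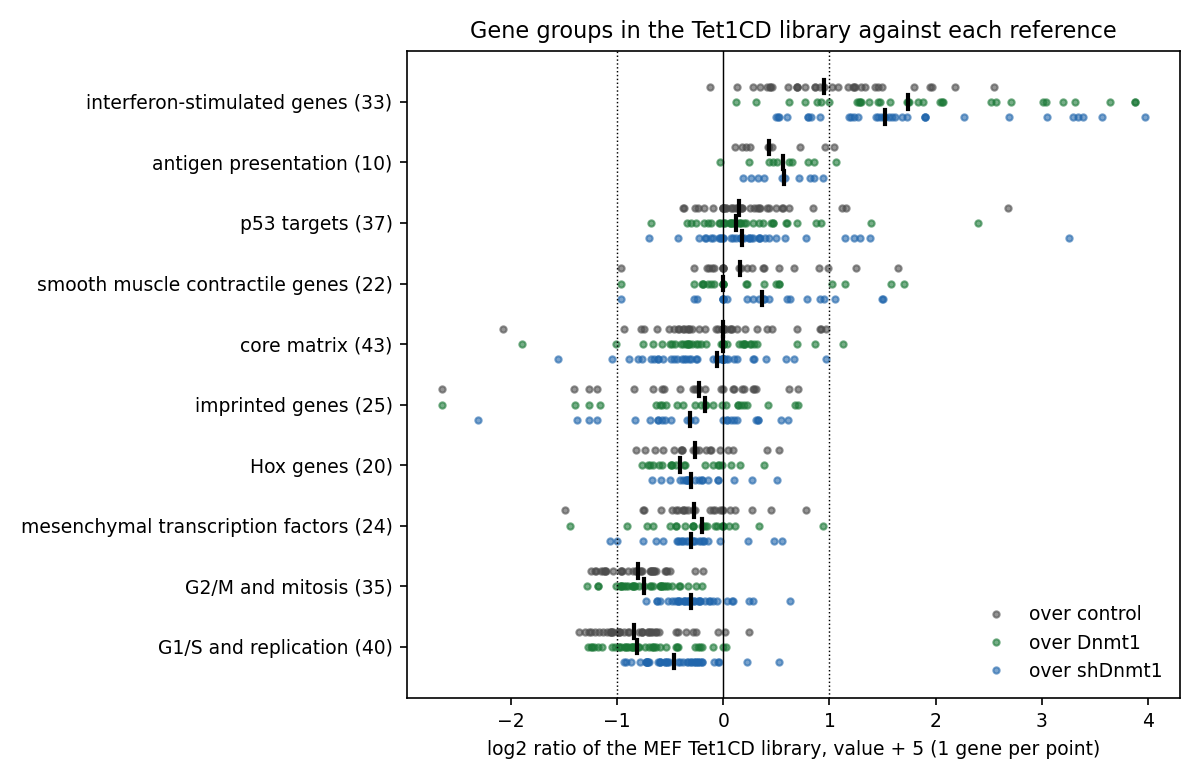
Log2 ratio of the Tet1CD library over each reference for 10 gene lists, 1 point per gene, measured genes in brackets; black ticks are medians and dotted lines mark 2-fold. The medians of the interferon list lie to the right of 0 and those of both cell cycle lists to the left, with the cell cycle medians closest to 0 over shDnmt1.

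The 14 SKOM libraries, which the rule did not use, allow a test of Tet1CD. An additive limma model with terms for medium, Dnmt1, shDnmt1, Tet1CD and shp53 gave each gene a Tet1CD change with a standard error (SE), on 8 residual degrees of freedom. The tables of the 2 media were normalized separately, and the medium term keeps the comparison within each. Of the 77 higher genes 52 were listed in both SKOM tables, and 48 of these rose with Tet1CD at a Benjamini-Hochberg adjusted p under 0.05 and 0 fell. Over all genes measured in MEFs, 21.1% rose and 24.7% fell. The median change of the 52 was 1.46 on the log2 scale, against -0.03 for all genes. SKOM tables also list a gene only where it reaches 32 in 2 libraries, so some of the 52 are listed only through libraries with Tet1CD, and 25 of the 77 were missing from at least 1 table. Of the 43 that 2 or more libraries without Tet1CD would list in each table, 40 rose. Of the 40 lower genes 23 were listed in both, of which 10 fell, 2 rose and 11 did not pass, with a median of -0.23.

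Among the higher genes Xaf1 was the clearest. Without vitamin C it was 34 in the control, 41 with Dnmt1, 46 with shDnmt1 and 21 with shp53 and shDnmt1, and 121, 129 and 115 in the libraries with Tet1CD alone, with Dnmt1 and with shDnmt1. With vitamin C the values were 160, 131, 157 and 111 without Tet1CD and 568, 602 and 685 with it. The groups did not overlap in either medium, and the change was 1.75 ± 0.11 (SE, limma adjusted p = 5.77e-06). Zbtb38 ran from 178 to 216 without Tet1CD and from 363 to 475 with it in Vc- medium, and from 276 to 348 and from 861 to 951 in Vc+ medium, a change of 1.21 ± 0.10 (SE, limma adjusted p = 2.96e-05). Glipr1 rose by 2.58 ± 0.34 (SE, limma adjusted p = 0.000297). Without vitamin C, Xdh, Irf7 and Apol9a were under 32 in every library without Tet1CD. They were thus listed there through the Tet1CD libraries alone, and only their Vc+ values carry a test. In the fit to Vc+ libraries Xdh rose by 2.37 ± 0.16 (SE, limma adjusted p = 0.000372) and Irf7 by 2.22 ± 0.12 (SE, limma adjusted p = 0.000227). Apol9a rose there by 2.69 ± 0.13 (SE, limma adjusted p = 0.000189). Of the interferon-stimulated list 27 genes were tested, and 26 rose and 0 fell, with a median change of 1.05. Over all genes measured in MEFs, 21.1% rose and 24.7% fell. Irf7, Rtp4, Parp14 and Ifi27, among the 27, were listed without vitamin C through the Tet1CD libraries alone. The count is therefore in part set by the listing. Of the macrophage and leukocyte markers 4 were tested and 4 rose, with a median of 1.90, among them Laptm5 (1.90 ± 0.31 SE, limma adjusted p = 0.000797) and Cd68 (1.64 ± 0.32 SE, limma adjusted p = 0.00194). The listing limit was not applied to these markers, and their part in the SKOM result was not tested. Isg15 and Usp18 were listed with vitamin C only, where they rose by 2.84 ± 0.15 and 2.55 ± 0.15 (SE, limma adjusted p = 0.000212 and 0.000273). Gdf15, also listed with vitamin C only, was 18 in the control, 14 with Dnmt1, 21 with shDnmt1 and 6 with shp53 and shDnmt1, and 169 to 302 with Tet1CD. It passed the listing value of 32 through the Tet1CD libraries alone, so its values carry no test.

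The lower genes did not follow as a set. Fbn2 ran from 578 to 721 with Tet1CD and from 760 to 1255 without in Vc- medium, and from 784 to 979 and from 1464 to 2554 in Vc+ medium. It fell by 0.86 on the log2 scale (SE 0.18, limma adjusted p = 0.00281). Elavl2 fell by 0.73 (SE 0.10, limma adjusted p = 0.000344), with 110 to 129 against 163 to 222 without vitamin C and 90 to 123 against 191 to 258 with it. For both genes the groups were apart in each medium. H19 fell by 0.46 (SE 0.13, limma adjusted p = 0.0131), Gli2 by 0.43 (SE 0.13, limma adjusted p = 0.0174) and Cmah, the enzyme that makes the sialic acid Neu5Gc, by 0.93 (SE 0.21, limma adjusted p = 0.00477). H19 overlapped between the groups with vitamin C, where it was 761, 1000 and 1042 with Tet1CD and 958 to 1732 without. Grb10 changed by -0.50 ± 0.18 (SE, limma adjusted p = 0.0429), a call lost without the Vc- shDnmt1 library or without any 1 of 6 Vc+ libraries, all but that of shp53 with shDnmt1, with adjusted p of 0.0516 to 0.109, and with the libraries paired by medium and other constructs as a replicate block, with an adjusted p of 0.0788. Peg3 (-0.23 ± 0.13 SE, limma adjusted p = 0.171) and Penk (0.01 ± 0.21 SE, limma adjusted p = 0.982) did not pass. Spp1 and Igfbp3, lower in MEFs, rose in SKOM cells by 0.46 ± 0.15 and 0.40 ± 0.13 (SE, limma adjusted p = 0.0247 and 0.0252). These changes are averages over both media, which were unlike for some genes. In fits to each medium Spp1 changed by 0.12 ± 0.13 SE without vitamin C and 0.81 ± 0.08 with it. Igfbp3 changed by 0.09 ± 0.09 and 0.71 ± 0.10 in that order. Penk changed by -0.52 ± 0.14 and 0.53 ± 0.19, Peg3 by 0.11 ± 0.06 and -0.58 ± 0.15, and Gli2 by -0.10 ± 0.08 and -0.77 ± 0.13.

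**Figure D5:**
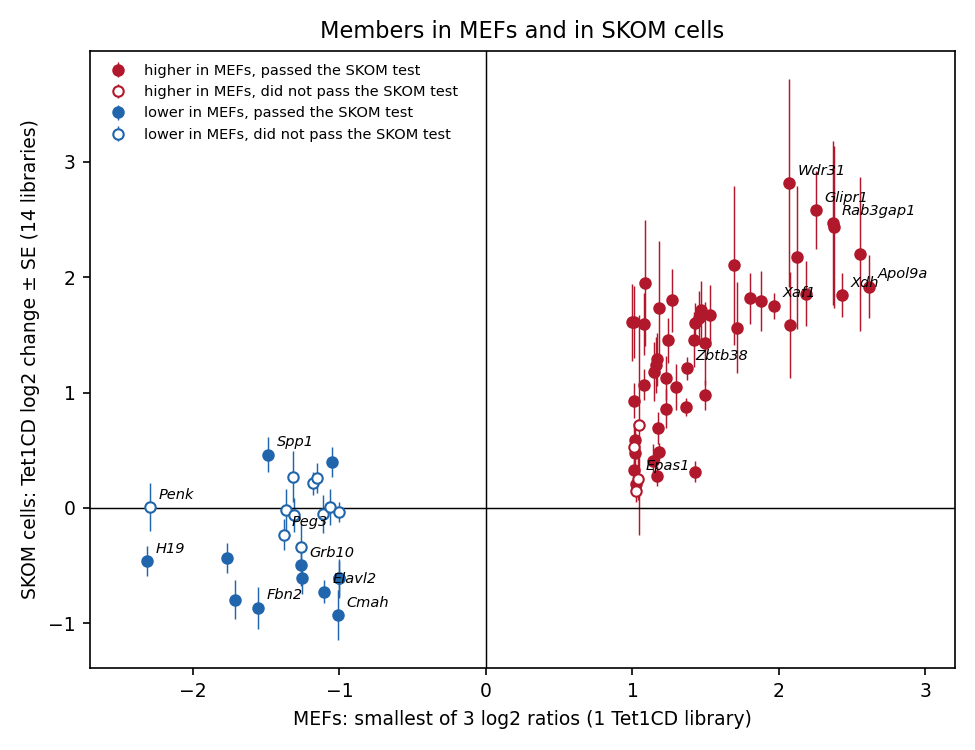
Each point is a gene listed in both SKOM tables, with its smallest MEF log2 ratio on the x axis and its SKOM Tet1CD change ± SE on the y axis; filled points passed the limma test. The higher genes lie above 0 throughout, from 0.14 to 2.82, and the lower genes on both sides, from -0.93 to 0.46.

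In separate fits to each medium, on 2 residual degrees of freedom, 64 of 72 listed higher genes rose and 0 fell with vitamin C (21.2% of all genes measured in MEFs rose), and 29 of 52 rose and 1 fell without it (7.31% rose). The same listing limit holds here: of the genes that 2 or more libraries without Tet1CD would list, 50 of 55 rose with vitamin C and 22 of 43 without it. Of the lower genes 10 of 28 fell and 3 rose with vitamin C (23% fell), and 5 of 23 fell and 1 rose without it (7.54% fell). The Vc- counts rest on single libraries: 0 higher genes passed without the Dnmt1 library or without the library of Tet1CD with Dnmt1, and 5 without shDnmt1 or without Tet1CD with shDnmt1, and in each of these 4 cases 0 lower genes passed.

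The difference between media was tested with a Tet1CD by vitamin C term. Of 52 higher genes 42 had a more upward change with vitamin C and 0 a more downward one, beside 11.6% and 11% of the genes measured in MEFs. Some of the 52 were listed only through libraries with Tet1CD. Rab3gap1 was 467 to 769 without Tet1CD and 529 to 603 with it in Vc- medium, and 707 to 1656 and 13535 to 28926 in Vc+ medium, where 28926 is the highest value of the table. Wdr31 was 76 to 194 and 58 to 86 in Vc- medium, and 110 to 572 and 5366 to 13554 in Vc+ medium. For both genes the groups overlapped without vitamin C and stood far apart with it. The overall Wdr31 change of 2.82 ± 0.90 (SE, limma adjusted p = 0.0239) was lost without any 1 of 6 Vc+ libraries, all but that of shp53 with shDnmt1, with adjusted p of 0.0627 to 0.065, and with the paired replicate block, with an adjusted p of 0.0554.

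The effect of shDnmt1 was also read on the shp53 background, from 1 library each of shp53 with shDnmt1 and of shp53, neither used by the rule. Of the 77 higher genes 13 were at least 2-fold higher there, beside 0.806% of all measured genes, and 0 were lower. They included Usp18 (2 with shp53 and 18 with shDnmt1 added), Irf7 (3 and 13), Isg15 (9 and 24), Oasl2 (7 and 28), Ifit1 (11 and 32), Bst2 (22 and 59) and Gdf15 (5 and 23), and also Rab3gap1 (375 and 853) and Slc38a6 (618 and 1394). Most of these values are small, and with 20 in place of 5 added to each value 3 genes pass. The median ratio of the interferon-stimulated list was 0.38 on this background, while with shDnmt1 over the control it was -0.63. Of the 40 lower genes 4 were 2-fold higher, among them Nptx1 (131 and 302), and 2 were lower, Kdr (306 and 127) and Meox1 (66 and 17), beside 0.413% of all genes. This comparison has no replicate.

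The MEF counts depend on where the lines are drawn. With 20 added to each value the lower genes number 23, and without shDnmt1 as a reference 94, while the higher genes number 61 and 110. Of the higher genes 10 had no reference at 32 or more and 6 were listed through the 5C library, so their reference values are near the floor of the table.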

How the data were processed

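RNA was sequenced from 21 mouse libraries, 7 of MEFs and 7 in each SKOM medium, prepared with a TruSeq kit from Trizol RNA per the labels' protocols. Bowtie, RSEM and the build mm10 appear, without versions, in the submitters' processing notes. What the authors deposited is of the unit score: whole numbers normalized within each table by a method not given in the sources used here, so depth is unknown and no counting error was computed. Strand use is not given either.

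Groups came from the sample titles. Log2 ratios used (value + 5), and 2-fold in the same direction against 3 references, with a mean of at least 50 over 7 MEF libraries, chose the members. SKOM libraries were fitted with limma 3.58.1 in R 4.3.3 on log2(value + 5) with an intensity trend, keeping genes that averaged 10 or more, with Benjamini-Hochberg adjustment over all genes and a threshold of 0.05. The Tet1CD by vitamin C term was added to the additive model. Both steps were tested on simulated data. The members, the 33 gene lists (818 symbols, 582 listed in MEFs) and the tests were chosen with earlier results of these data known, and the SKOM pattern was in part known, so it is no independent support.

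Named are the construct genes, the 14 largest ratios per direction (predicted genes left out), up to 5 members per list past 2-fold or otherwise up to 3, the 2 genes on each side of the threshold and the 8 leading genes per direction past both MEF rule and SKOM test. Others, such as Irgm2, Casp1, Mlkl, Scx, Eng, Gpx3, Scn1a, Il1rn and Gas1, were chosen for their role after their values were seen. Coordinates are those of the files (mm10, from 1), biotypes are from GENCODE M21 (99.5% of identifiers found), promoters from RefSeq. The 5C library counted only toward the mean of a gene. Alternatives covered pseudocounts, filters, folds, references, rank mapping, median centring, the limma settings and each library left out. One gene of the interferon list is counted with the list but is not reported here by itself.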

Additional observations from a re-analysis of the deposited data

Results flagged for a closer look

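The Tet1CD change of SKOM cells differed between media for many of these genes, by limma's interaction term on the 14 SKOM libraries with Benjamini-Hochberg adjustment over all genes, in which each change is taken within its own medium. Of 52 higher genes 42 had a more upward change with vitamin C, and some of the 52 were listed only through libraries with Tet1CD. Of 23 lower genes 4 had a more upward and 8 a more downward change with vitamin C, and 11 did not pass. Among the leading genes, Wdr31 differed by 5.83 on the log2 scale (SE 0.28, limma adjusted p = 6.32e-08), Rab3gap1 by 4.55 (SE 0.26, limma adjusted p = 3.70e-07) and Slc38a6 by 4.01 (SE 0.18, limma adjusted p = 5.27e-08). Rab3gap1 and Slc38a6 share transcript sequence. No gene with vitamin C exceeded 28926, and this ceiling was the value of Slc38a6 in all 3 Vc+ libraries with Tet1CD and of Rab3gap1 in 2 of the 3, so for both genes neither the size of the difference nor the spread behind its SE is free of it. Glipr1 differed by 1.98 (SE 0.29, limma adjusted p = 0.000563) and Oasl2 by 1.31 (SE 0.17, limma adjusted p = 0.000316). Apol9a differed by 1.65, Rtp4 by 1.63 and Xdh by 1.03. Without vitamin C these 3 genes were listed through the Tet1CD libraries alone, so their differences carry no test. The difference was downward for 3 lower genes: Grb10 (-1.13, SE 0.10, limma adjusted p = 2.38e-05), Cmah (-1.13, SE 0.23, limma adjusted p = 0.00469) and Kif7 (-0.79, SE 0.21, limma adjusted p = 0.0158). Grb10 was 3521 to 4230 in all 7 Vc- libraries, whereas in Vc+ medium it was 6411 in each of the 4 libraries lacking Tet1CD and 2890 to 3267 in the other 3. Equal values of this kind need not show equal levels, and the SE of Grb10 rests in part on them.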

How the results depend on the processing

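The labels give no replicate numbers that pair samples, and MEFs had 1 library per construct. The lower MEF genes numbered 23 with a pseudocount of 20, 73 with no filter on low values and 26 with the shp53 libraries added as references. A mean of at least 200 left 25 higher and 18 lower genes, a fold threshold of 1.5 gave 228 and 200, and a threshold of 3 gave 25 and 8. Leaving out each reference in turn gave 87 to 110 higher and 43 to 94 lower genes, the 94 without shDnmt1. Rank mapping gave 77 and 35, median centring 80 and 35. In 391 of 392 alternatives over 49 named genes the direction was kept, the exception being Igfbp3 against 5 references. In SKOM cells, leaving out each library in turn gave 41 to 48 higher genes that rose and 8 to 11 lower genes that fell, 55 to 67 and 7 to 11 with vitamin C, and 0 to 30 and 0 to 6 without it, where 2 lower genes fell without the intensity trend. With shDnmt1 on shp53, a pseudocount of 20 left 3 higher genes. Added after seeing the data, a paired fit of 12 SKOM libraries with 6 pairs of the same medium and other constructs as a replicate block, on 5 residual degrees of freedom, gave 41 higher genes that rose and 9 lower genes that fell. Also added then, 35 of 39 higher genes outside the interferon list rose, as did 32 of 35 without genes that share transcript sequence and 47 of 51 chosen on the mean of the 4 libraries compared. Of 320 alternatives for 16 named genes in SKOM cells, 304 passed the test, and the other 16 were of Grb10 and Wdr31. The named genes included Apol9a, Rtp4 and Xdh, which Vc- libraries without Tet1CD would not list.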

Other observations

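Further lists gave these counts in MEFs, beside 31.3% of all measured genes above all 3 references and 35.7% below. At 2-fold the share above was 0.776%. Of 20 Nrf2 antioxidant genes 12 were above all 3 references and 1 below, and of 22 cholesterol synthesis genes 3 were above and 11 below, with Hsd17b7 the 1 gene past 2-fold (239 in the control, 213 in the library labelled Dnmt1, 200 with shDnmt1 and 486 with Tet1CD). Of 27 hypoxia response genes 10 were above and 11 below, and of 24 TGF-beta pathway genes 10 and 8, with 0 past 2-fold in either list. Beside 0.403% of all genes 2-fold below all references, 2 of 12 chemokine and cytokine genes (Spp1 and Il1rl1), 2 of 21 senescence and secretory genes (Mmp3 and Igfbp3), 1 of 3 endothelial markers (Kdr) and 1 of 4 chondrocyte and bone markers (Spp1) were, and 0 genes of these 4 lists were 2-fold above. Krt18, a keratin that pairs in simple epithelia, was left out by the filter on low values and was 21, 15, 27 and 134 in the same order of libraries. Selp, an adhesion receptor of endothelium and platelets, was 91, 82, 264 and 549, so its shDnmt1 value also stood apart from the other references.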
